A study of Mus musculus and Rattus norvegicus with 28 samples.

Results

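The 10 genes described here carry glucose into heart cells and through the first committed steps of its breakdown: the transporters Slc2a1 and Slc2a4, the hexokinases Hk1 and Hk2, the phosphofructokinases Pfkm, Pfkl and Pfkp, and the regulatory enzymes Pfkfb1, Pfkfb2 and Pfkfb3. They were found by symbol, and all 10 were present among the 55450 genes of the mouse files and the 32623 genes of the rat files. Of the 28 libraries of the series, 8 mouse RNA-seq, 8 mouse ATAC-seq and 6 rat RNA-seq libraries were used, and 6 HiChIP libraries were not analysed here. Mouse cells were isolated from the left ventricle of wild-type C57BL/6 animals of both sexes on embryonic day 18.5 (E18.5) and postnatal days 1 (P1), 3 (P3) and 7 (P7), and each assay has 2 libraries per age. The isolation included pre-plating, a step that lets other cell types stick to the dish and keeps the floating cardiomyocytes. Rat cells were ventricular cardiomyocytes from Sprague Dawley neonates at P1, cultured and treated the day after plating with DMSO as the control or with 100 nM trichostatin A (TSA), an inhibitor of histone deacetylases, with 3 libraries each. The authors describe their replicates as biological. No source used here says which libraries came from separate litters or cultures, so the p values measure the spread between libraries, which may be partly technical.

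Glucose crosses the cell membrane through facilitative transporters. GLUT1, encoded by Slc2a1, is the basal form and predominates in the fetal heart, whereas GLUT4, encoded by Slc2a4, is held in vesicles inside muscle and fat cells until insulin or contraction moves it to the surface. Hexokinases phosphorylate glucose and so trap it in the cell. Phosphofructokinase-1 then commits the sugar to glycolysis as a tetramer of muscle (Pfkm), liver (Pfkl) and platelet (Pfkp) subunits, and the Pfkfb enzymes make and remove fructose 2,6-bisphosphate, its strongest activator. The heart relies on glycolysis before birth and turns to fatty acids afterwards, and Pfkm is the main subunit of mature striated muscle.

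In the mouse files (mm10), the transporters were Slc2a1 (ENSMUSG00000028645.11, chr4:119108711-119137983, plus strand) and Slc2a4 (ENSMUSG00000018566.14, chr11:69942539-69948188, minus strand). The hexokinases were Hk1 (ENSMUSG00000037012.18, chr10:62268855-62379908, minus strand) and Hk2 (ENSMUSG00000000628.10, chr6:82725025-82774454, minus strand). The phosphofructokinases were Pfkm (ENSMUSG00000033065.14, chr15:98092589-98132451, plus strand), Pfkl (ENSMUSG00000020277.10, chr10:77986947-78010083, minus strand) and Pfkp (ENSMUSG00000021196.14, chr13:6579768-6648777, minus strand). The regulatory enzymes were Pfkfb1 (ENSMUSG00000025271.13, chrX:150588229-150643878, plus strand), Pfkfb2 (ENSMUSG00000026409.14, chr1:130689182-130729253, minus strand) and Pfkfb3 (ENSMUSG00000026773.19, chr2:11471433-11554077, minus strand). Genes on the opposite strand overlapped some of these loci, and the strand of the reads is not given in the sources used here, so reads of overlapping genes could not be told apart. The overlapping genes of highest level were Pitrm1 at Pfkp (29.0 to 41.9 FPKM), Senp1 at Pfkm (5.61 to 9.03 FPKM), Apex2 at Pfkfb1 (1.43 to 6.62 FPKM) and Yod1 at Pfkfb2 (0.855 to 4.38 FPKM).

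Promoter windows from RefSeq (GRCm38.p6) matched 9 of the 10 genes, all except Slc2a4, with 19 start sites among them. The following windows hold the 250 bases upstream of a start, each written 5′ to 3′ on the gene's strand. They are a selection, and motifs are counted below over the windows of all 19 starts. They belong to Slc2a1 (chr4:119108495-119108744), Hk2 (chr6:82774455-82774704), Pfkp (chr13:6648772-6649021), the inner start of Pfkfb3 (chr2:11502091-11502340), and the distal and proximal starts of Pfkm (chr15:98092339-98092588 and chr15:98108221-98108470). Capitals mark ACGTG, the core of the hypoxia response element, and GGGCGG, the GC box, on either strand.
Slc2a1: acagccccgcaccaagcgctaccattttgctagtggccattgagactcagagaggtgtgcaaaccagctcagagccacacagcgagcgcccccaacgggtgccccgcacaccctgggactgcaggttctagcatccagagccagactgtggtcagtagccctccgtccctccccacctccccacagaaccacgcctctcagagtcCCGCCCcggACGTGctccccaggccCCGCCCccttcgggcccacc
Hk2: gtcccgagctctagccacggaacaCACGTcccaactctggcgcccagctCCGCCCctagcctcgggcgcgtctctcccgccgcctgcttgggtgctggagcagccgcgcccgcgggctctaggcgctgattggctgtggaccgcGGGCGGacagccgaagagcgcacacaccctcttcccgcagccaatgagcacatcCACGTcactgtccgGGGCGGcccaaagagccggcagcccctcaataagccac
Pfkp: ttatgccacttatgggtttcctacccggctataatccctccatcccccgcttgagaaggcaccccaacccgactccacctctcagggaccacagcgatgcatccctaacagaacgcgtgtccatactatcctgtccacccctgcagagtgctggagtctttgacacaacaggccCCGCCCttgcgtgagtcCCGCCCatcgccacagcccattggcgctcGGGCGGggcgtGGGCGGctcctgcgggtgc
Pfkfb3 inner start: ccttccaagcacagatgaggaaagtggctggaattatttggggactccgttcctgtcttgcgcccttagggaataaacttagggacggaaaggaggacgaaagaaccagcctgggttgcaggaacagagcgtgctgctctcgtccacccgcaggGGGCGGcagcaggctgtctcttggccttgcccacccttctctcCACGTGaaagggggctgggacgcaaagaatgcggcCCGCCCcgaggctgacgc
Pfkm distal start: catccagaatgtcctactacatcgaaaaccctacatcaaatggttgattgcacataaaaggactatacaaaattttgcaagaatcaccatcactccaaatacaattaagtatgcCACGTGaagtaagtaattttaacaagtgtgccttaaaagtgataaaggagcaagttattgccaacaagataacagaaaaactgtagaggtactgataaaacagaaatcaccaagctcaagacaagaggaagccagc
Pfkm proximal start: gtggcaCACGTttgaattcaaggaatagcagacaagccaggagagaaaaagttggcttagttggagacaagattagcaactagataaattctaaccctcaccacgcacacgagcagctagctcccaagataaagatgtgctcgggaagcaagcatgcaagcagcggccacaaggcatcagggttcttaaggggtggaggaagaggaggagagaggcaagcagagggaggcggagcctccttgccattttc

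ACGTG was found in 8 of the 19 windows and 5 of the 9 genes, against 16.6% of all 32851 windows. In the Slc2a1 window it lay 32 bases upstream of the start, between a pair of GC boxes. GGGCGG was found in 7 of the 19 windows and 6 genes, against 32.7% of all windows, and the Pfkp window held 4 copies. CACGTG, the E-box that contains ACGTG on both strands, was found in 3 windows against 6.02% of all windows, those of the distal Pfkm start, the inner Pfkfb3 start and 1 start of Pfkfb2. TGANTCA, the AP-1 site, was found in 0 of the 19 windows and in 6.75% of all windows, and a MEF2 site in 1 window of Pfkfb1, against 1.69% of all windows. The distal Pfkm window was the poorest in G and C of the 19 (36.4%), and the Hk2 window the richest (69.6%). Windows of the same gene can overlap, and a match of letters is a description and shows no binding.

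Levels are given as FPKM (fragments scaled by transcript length and library size) summed over the transcripts of a gene, which allows comparison between genes. The libraries held 29.3 to 37.5 M aligned reads in mouse and 28.2 to 38.5 M in rat; this depth was derived by dividing the listed coverage by FPKM. The levels of cell type markers in the mouse libraries differed with age. The summed FPKM of 8 cardiomyocyte markers was 15630 to 19450 on E18.5, 7790 to 12760 on P1, 4911 to 5543 on P3, then 589 to 1378 on P7, while that of 8 fibroblast markers was 432 to 442, 1144 to 1378, 1542 to 1545 and 2907 to 3628. From E18.5 to P7 all 8 cardiomyocyte markers were called lower and all 8 fibroblast markers higher, and none of these 16 genes was at 0 in any library. The authors report high purity of the cells isolated at P7 by staining for cardiac troponin T. The sum of smooth muscle and pericyte markers was 398 to 533 FPKM at E18.5 and 1652 to 1860 at P7. That of macrophage markers was 42.5 to 45.7 and 108.5 to 129.3, and the endothelial sums of these ages overlapped. The sum of 7 erythroid markers was 29050 to 35400 FPKM at E18.5 and at most 41.1 FPKM after birth. In such bulk samples fewer cells of a type and less RNA per cell cannot be told apart, and the part of these differences in the results below was not tested.

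The transporters moved in opposite directions in the mouse cells. Slc2a1 stood at 50.5 and 37.1 FPKM on E18.5, 42.7 and 59.9 on P1, 48.5 and 48.0 on P3, then 118 and 140 on P7. Both P7 libraries lay above every earlier library, and the ranges of the other 3 time points overlapped. With 2 libraries per age such separation was common, here and below. Both P7 libraries lay above those of E18.5 for 45.6% of tested genes and below them for 32.7%. Between E18.5 and P7 Slc2a1 rose 2.94-fold, from 43.8 ± 9.52 to 129 ± 15.5 FPKM (mean ± SD, n = 2), with a log2 fold change of 1.54 ± 0.20 (SE, adjusted p = 0.000381, limma on log2(FPKM + 1)). It also rose between P3 and P7 (log2 fold change 1.39, adjusted p = 0.0117, limma). Slc2a4 stood at 17.8 and 25.4 FPKM on E18.5, 23.0 and 39.9 on P1, 15.6 and 13.5 on P3, then 3.70 and 1.179 on P7. Its libraries at P7 were the lowest of all, and replicate 1 was the higher of the pair. Slc2a4 fell 8.84-fold between E18.5 and P7 (log2 fold change −2.80 ± 0.38, adjusted p = 0.000483, limma), and the fall between P3 and P7 alone was 5.98-fold (log2 fold change −2.28, adjusted p = 0.0164, limma). The cardiomyocyte marker Tnnt2 was likewise higher in replicate 1 than in replicate 2 at P7 (710 against 330 FPKM).

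**Figure D1:**
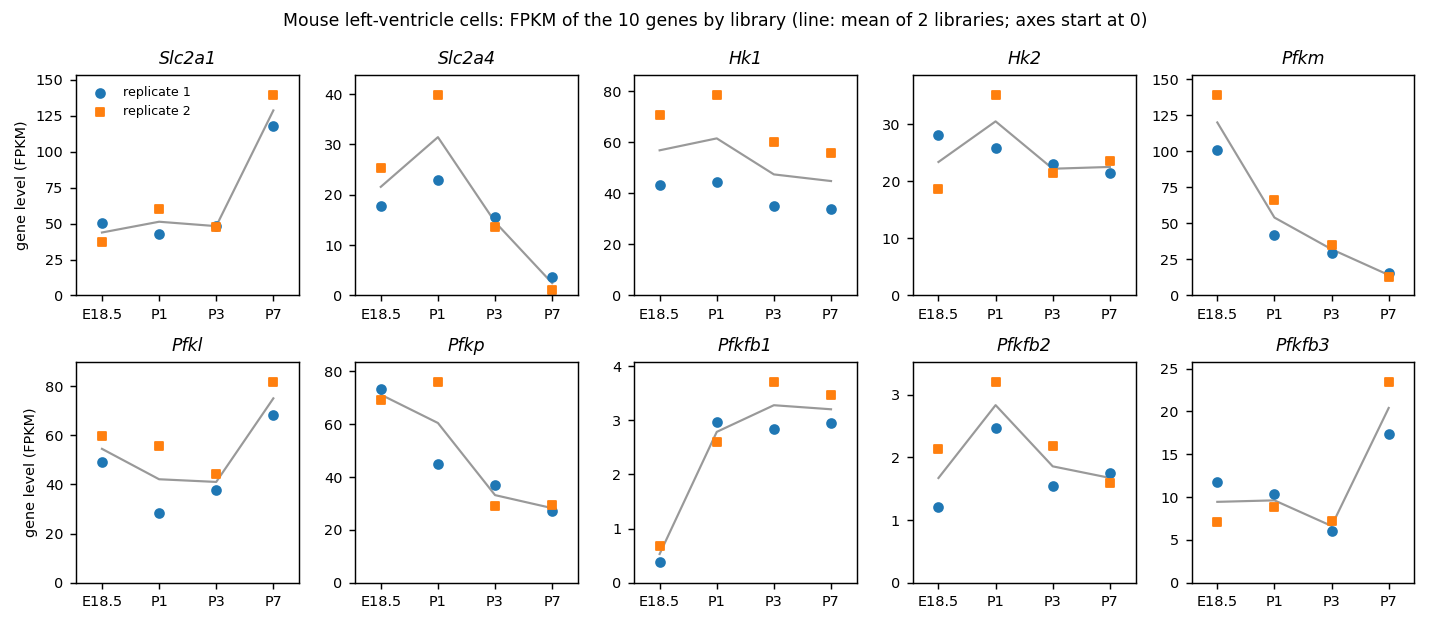
FPKM of each of the 10 genes in the 8 mouse libraries, with time point on the x axis and FPKM on a linear y axis from 0, circles for replicate 1, squares for replicate 2 and a line through the means. Slc2a1 and Pfkfb3 sit highest at P7, where Slc2a4 and Pfkm sit lowest, and Hk1 is higher in replicate 2 at each time point.

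Neither hexokinase was called in any of the 6 comparisons between time points. Hk1, the housekeeping form that binds mitochondria, measured 43.2 and 70.6 FPKM on E18.5, 44.4 and 78.7 on P1, 34.9 and 60.0 on P3, then 33.9 and 55.8 on P7. Replicate 2 was the higher at every time point, and this gap was wider than any difference between the time point means. The log2 fold change of Hk1 between E18.5 and P7 was −0.34 ± 0.39 (adjusted p = 0.481, limma). Hk2, the form most abundant in insulin-sensitive muscle, measured 28.0 and 18.7 FPKM on E18.5, 25.8 and 35.2 on P1, 23.0 and 21.4 on P3, then 21.5 and 23.5 on P7. Its log2 fold change between E18.5 and P7 was −0.03 ± 0.21 (adjusted p = 0.921, limma), and on the TPM scale it was 0.23.

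The phosphofructokinase subunits changed rank. Pfkm was the most abundant at E18.5 with 101 and 139 FPKM, followed by 42.1 and 66.0 on P1, 29.4 and 34.7 on P3, then 15.5 and 12.9 on P7. The ranges of the time points did not overlap, each later pair lying below the earlier one. The same held for 26% of tested genes between E18.5 and P1, 20.1% between P1 and P3, and 31.7% between P3 and P7. Relative to E18.5, Pfkm fell 2.22-fold at P1 (log2 fold change −1.15 ± 0.24, adjusted p = 0.00646), 3.74-fold at P3 (−1.86, adjusted p = 0.000537) and 8.46-fold at P7 (−2.98, adjusted p = 3.88e-05), all by limma. Pfkm was among the 1.3% of tested genes with the lowest fold change at P7. The call at P1 was lost without replicate 2 of E18.5 or replicate 1 of P1, and on the TPM scale.

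Pfkp, the platelet subunit, measured 73.4 and 69.1 FPKM on E18.5, 44.9 and 76.0 on P1, 37.2 and 29.2 on P3, then 27.1 and 29.4 on P7. P1 spanned the E18.5 values, and P3 and P7 lay below both. Both libraries of an age lay below those of E18.5 for 28.4% (P3) and 32.7% (P7) of tested genes. Pfkp fell 2.15-fold between E18.5 and P3 (log2 fold change −1.09 ± 0.23, adjusted p = 0.00569, limma) and 2.52-fold between E18.5 and P7 (−1.31 ± 0.23, adjusted p = 0.00189, limma). The call at P3 was lost without replicate 2 of P3 and on the TPM scale. Pfkl, the liver subunit, measured 49.2 and 59.8 FPKM on E18.5, 28.5 and 55.8 on P1, 37.7 and 44.3 on P3, then 68.4 and 81.8 on P7. Both P7 libraries were the highest, but no comparison of Pfkl was called, and its log2 fold change between E18.5 and P7 was 0.45 ± 0.28 (adjusted p = 0.20, limma).

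Pfkfb3, the inducible form with strong kinase activity, measured 11.7 and 7.14 FPKM on E18.5, 10.4 and 8.87 on P1, 6.07 and 7.19 on P3, then 17.4 and 23.4 on P7. The P7 libraries stood above all 6 others. Of tested genes, 45.6% had both P7 libraries above those of E18.5, 30.9% above those of P1 and 24.6% above those of P3. Pfkfb3 rose 2.16-fold between E18.5 and P7 (log2 fold change 1.06 ± 0.24, adjusted p = 0.00632, limma), a value close to the threshold of 1, and 3.08-fold between P3 and P7 (1.48 ± 0.24, adjusted p = 0.0152, limma). The first of these calls was lost with median-of-ratios size factors, without replicate 2 of E18.5 and without replicate 2 of P7. Pfkfb1, first described in liver and skeletal muscle, was low at E18.5 (0.391 and 0.671 FPKM) and measured 2.97 and 2.60 FPKM on P1, 2.85 and 3.71 on P3, then 2.94 and 3.46 on P7. All 6 postnatal libraries lay above both E18.5 libraries. Both libraries of an age lay above those of E18.5 for 43.5% (P1), 46.3% (P3) and 45.6% (P7) of tested genes. Pfkfb1 rose 5.24-fold at P1, 6.17-fold at P3 and 6.03-fold at P7 relative to E18.5, with log2 fold changes of 1.31, 1.48 and 1.46 after the addition of 1 FPKM (adjusted p = 0.00119, 0.000468 and 0.000331, limma). Pfkfb2, the cardiac form regulated by insulin and adrenaline, stayed between 1.21 and 3.20 FPKM in all 8 libraries and was not called (log2 fold change between E18.5 and P7 0.02 ± 0.22, adjusted p = 0.94, limma).

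Over the 10 genes, all of which passed the expression filter in mouse, 6 were called between E18.5 and P7. Of these, 3 rose (Slc2a1, Pfkfb1 and Pfkfb3) and 3 fell (Slc2a4, Pfkm and Pfkp), against 15.4% of the 13979 tested genes called higher, 12.3% lower and 27.7% in either direction. Their median log2 fold change was −0.003, beside 0.145 over all tested genes. Between E18.5 and P1, 1 was called higher (Pfkfb1) and 1 lower (Pfkm), against 10.1% and 6.06% of all tested genes, or 16.2% in either direction. Between E18.5 and P3, 1 was called higher (Pfkfb1) and 2 lower (Pfkm and Pfkp), against 13.0% and 8.88%, or 21.9% in either direction. These 3 comparisons share the E18.5 libraries. Between P1 and P3, 0 of the 10 were called by limma and 0 by limma-voom, while 3 (Slc2a4, Pfkm and Pfkp) had an unadjusted p under 0.05, beside 11.3% of all tested genes. After adjustment 0.0143% of all tested genes were called. Between P1 and P7, 2 were called higher (Slc2a1 and Pfkfb3) and 3 lower (Slc2a4, Pfkm and Pfkp), against 3.45% and 5.46%, or 8.91% in either direction. Between P3 and P7, 2 were called higher (Slc2a1 and Pfkfb3) and 2 lower (Slc2a4 and Pfkm), against 1.35% and 2.20%, or 3.55% in either direction. The last comparison was fragile, with 0 of the 10 called when low genes were not filtered out. Each of the 4 calls between P3 and P7 was also lost without replicate 1 of P3, without replicate 2 of P3 and without replicate 2 of P7, with adjusted p values of up to 0.0948 (Slc2a1), 0.121 (Slc2a4), 0.252 (Pfkm) and 0.12 (Pfkfb3) over all alternatives by limma or limma-voom. Between P1 and P7, the call of Pfkp was lost without replicate 2 of P1 or either P7 library (log2 fold changes from −1.398 to −0.653 over the alternatives). That of Pfkfb3 was lost without either P1 library or replicate 2 of P7 (0.794 to 1.253).

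Within families, the summed FPKM of the phosphofructokinases went from 223 and 268 at E18.5 to 111 and 124 at P7. Pfkm supplied 45.1% and 51.9% of that sum on E18.5, 36.5% and 33.4% on P1, 28.2% and 32.1% on P3, then 14.0% and 10.4% on P7. Pfkl supplied 22.0% and 22.3% at E18.5 and 61.6% and 65.9% at P7, so that the order Pfkm, Pfkp, Pfkl at E18.5 became Pfkl, Pfkp, Pfkm. Pfkp lay between them at both ages, with 29.3% ± 5.02 at E18.5 and 24.1% ± 0.523 at P7 (SD, n = 2), and it held the largest share at P1 (38.9% and 38.4%). The sum of both transporters was 68.3 and 62.4 FPKM at E18.5 and 121 and 141 FPKM at P7. Slc2a4 made up 26.0% and 40.6% of it at E18.5, and 3.05% and 0.837% at P7. Hk2 made up 20.9% to 39.7% of the hexokinase sum over the 8 libraries, without separation of the time points. Among the regulatory enzymes Pfkfb3 was the largest share in every mouse library, 71.8% to 88.0% at E18.5, 55.0% to 58.1% at P3, and 78.7% to 82.3% at P7. No test was made on these shares.

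**Figure D2:**
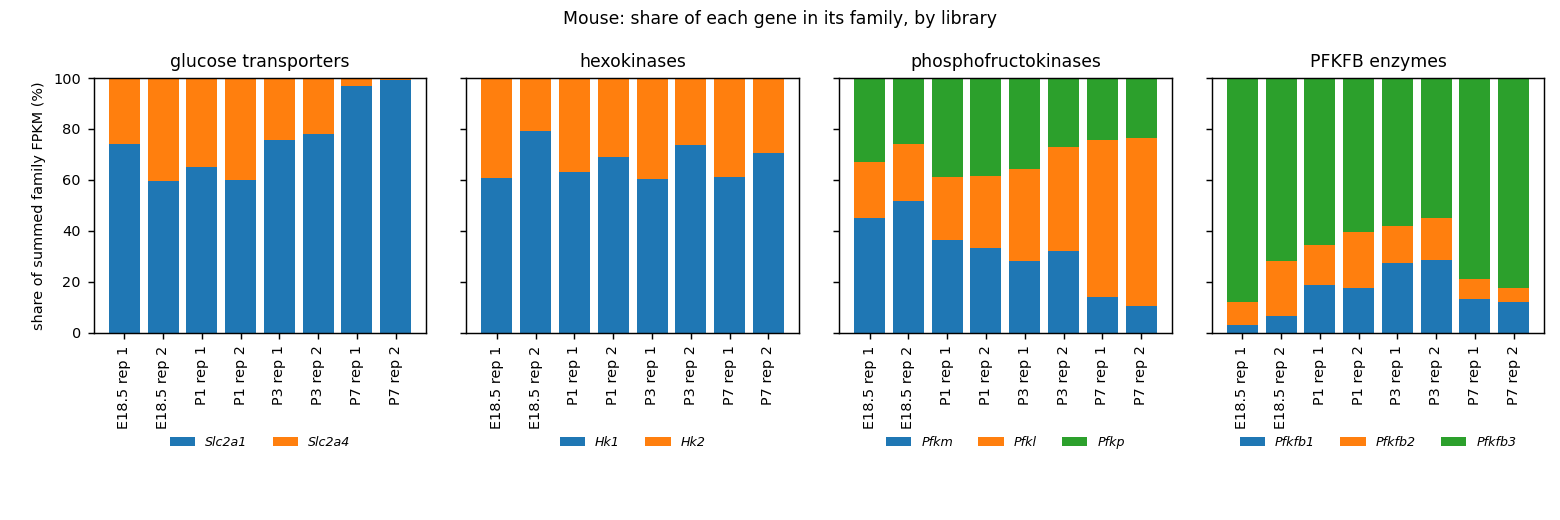
Stacked bars give the percent share of each gene in the summed FPKM of its family, 1 panel per family and 1 bar per mouse library. Pfkl grows from 22.0% and 22.3% of the phosphofructokinases at E18.5 to 61.6% and 65.9% at P7, Slc2a4 shrinks to 3.05% and 0.837% of the transporters, and the hexokinase shares show no order by age.

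The deposited files split each gene over its annotated transcripts, and the 10 mouse genes had 104 of them, of which 19 held a mean share of at least 10%. A single transcript carried most of Hk2 (ENSMUST00000000642.10, 96.6% to 99.4% over the 8 libraries), Pfkl (ENSMUST00000020522.8, 94.9% to 97.5%) and Slc2a4 (ENSMUST00000018710.12, 75.7% to 90.9%). Tests were possible for 14 transcripts of these genes, on the log2 odds of the share. Between E18.5 and P7, 1 of the 14 was called, against 2.12% of 13475 transcripts. It was the Pfkfb3 transcript ENSMUST00000114846.8, whose share was 11.4% ± 2.81 at E18.5 (SD, n = 2), 51.0% and 44.2% on P1, 28.8% and 58.8% on P3, then 68.7% and 77.1% on P7 (log2 odds difference 4.28, adjusted p = 0.0423, limma). That call was lost when any of the 4 libraries was left out. The transcript holds 0 bases that are absent from the other Pfkfb3 transcripts, so its share rests on an estimated division of shared exons.

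Between E18.5 and P1, 2 of the 14 transcripts were called, against 0.468% of all, and both belonged to Pfkm. Their shares of the gene mirrored each other, so the 2 calls are not independent and stand for the same shift. The transcript ENSMUST00000163507.7 begins at chr15:98092589, the distal start, and ENSMUST00000051226.7 begins at chr15:98108466, the proximal start. The distal transcript was assigned 60.5% and 68.0% of Pfkm FPKM at P1, 0.588% and 0.544% at P3, 0.214% ± 0.079 at E18.5 (SD, n = 2) and none at P7. Its log2 odds differed by 9.27 between P1 and E18.5 (adjusted p = 0.00154, limma), and the call was kept without each of the 4 libraries in turn. The same pair of transcripts was called between P1 and P3 (0.171% of all transcripts) and between P1 and P7 (0.334%). Between E18.5 and P3 and between P3 and P7, 0 of the 14 were called by limma, the only tool run on shares (0.75% and 0.208% of all called), while 7 and 4 had an unadjusted p under 0.05 (14.5% and 5.94% of all). The coverage listed over the first exons differed from this split. Over the distal first exon (chr15:98092589-98092665) the mean number of reads per base, summed over the 3 transcripts with an exon there, was 0.00433 and 0.026 at P1, below the 1.06 and 1.02 at E18.5. Over the proximal first exon (chr15:98108466-98108611) it was 41.0 and 59.3 at P1, 84.7 and 109 at E18.5, 23.6 and 34.6 on P3, then 10.9 and 13.0 on P7. The P1 share of the distal transcript therefore rested on exons that other Pfkm transcripts also hold. The summed Pfkm level does not depend on this split.

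**Figure D3:**
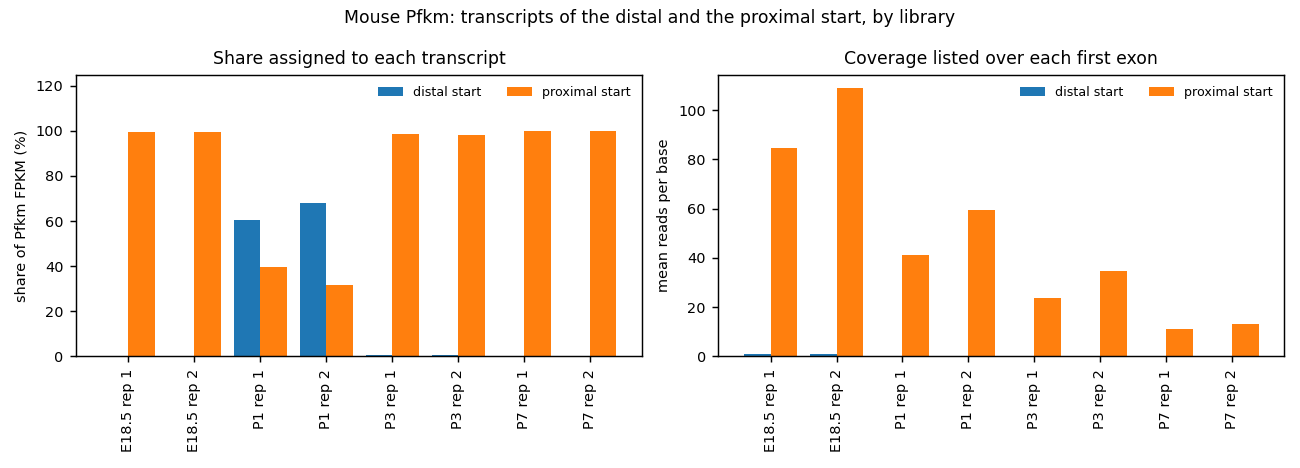
Bars give, for each mouse library, the percent of Pfkm FPKM assigned to the transcripts of the distal and proximal starts (left) and the mean reads per base listed over both first exons (right). The distal transcript takes 60.5% and 68.0% at P1 on the left, while its first exon has 0.00433 and 0.026 reads per base there on the right.

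ATAC-seq peaks mark open chromatin, and each library had its own list of 13149 to 95257 peaks. A gene was counted when a peak lay within 2.5 kb of any of its transcript starts in both libraries of a time point. This held for 9 of the 10 genes at E18.5 (56.7% of tested genes), 6 at P1 (41.3%), 10 at P3 (87.5%) and 10 at P7 (83.2%), so the members' counts moved with the share over all tested genes. With equal numbers of top peaks per list, the counts at P3 and P7 were 6 and 6 (37.3% and 45.2% of tested genes). Pfkfb1 had no such peak in any library of E18.5 or P1, and in each of the 4 libraries of P3 and P7 a peak with a fold enrichment of 4.33 to 7.44 overlapped its start at chrX:150588256. Each of these peaks also overlapped a start of Apex2 on the opposite strand, so they cannot be assigned to Pfkfb1 alone. By q value they ranked 28028 and 29462 at P3 and 23290 and 22031 at P7, beyond the 13149 peaks of the shortest list (E18.5). What list length contributes to the missing peaks of E18.5 and P1 was not tested. A further peak in replicate 2 of P3 (6.05) lay 164 bases from that Pfkfb1 start and 271 bases from that of Apex2. Slc2a1 and Slc2a4 had a peak in replicate 1 of P1 and none in replicate 2, a list in which 43.0% of the tested genes had a peak.

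Over the start of Slc2a1 the fold enrichment was 7.58 and 6.71 at E18.5, 5.36 in 1 library of P1, 5.90 and 7.47 on P3, then 5.62 and 5.80 on P7. The median over all peaks of a library was 5.94 and 5.65 at E18.5 and 4.57 and 4.35 at P7, so enrichments of these ages are not on 1 scale and give no direction. For Slc2a4 the highest peak in each library had an enrichment of 5.66 and 6.05 at E18.5 and 4.73 and 4.94 at P7, and all of its peaks lay at most 802 bases from a start. Hk2 had a peak over its main start in all 8 libraries, with an enrichment of 6.47 and 5.10 for E18.5, 12.96 and 6.32 for P1, 10.11 and 12.01 for P3, and 8.51 and 9.30 for P7. The first P1 value was the highest of any of the 10 genes. The main Hk1 start (chr10:62340542) lay inside a peak in 6 of the 8 libraries, and each of these peaks also overlapped the start of the antisense gene Hk1os. The main start of Pfkp lay inside a peak in all 8 libraries and that of Pfkl in 7, with the Pfkl peak of the remaining library, replicate 2 of P1, 4 bases away.

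The peaks listed near the distal and proximal Pfkm starts differed between time points, and the lists differed in length. At the proximal start, a peak overlapped chr15:98108466 in both P3 libraries (fold enrichment 9.96 and 7.77) and both P7 libraries (4.74 and 3.73), and in replicate 2 of E18.5 a weaker peak (4.01) lay 146 bases downstream. Replicate 1 of E18.5 and both P1 libraries held none there, although the proximal first exon was covered at all time points. Peaks 264 to 572 bases from a distal start occurred in all 6 libraries other than those of P1, and they overlapped the start of Senp1 on the opposite strand. At P1, where the distal transcript had its highest assigned share, neither library held a peak within 2.5 kb of any Pfkm start.

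**Figure D4:**
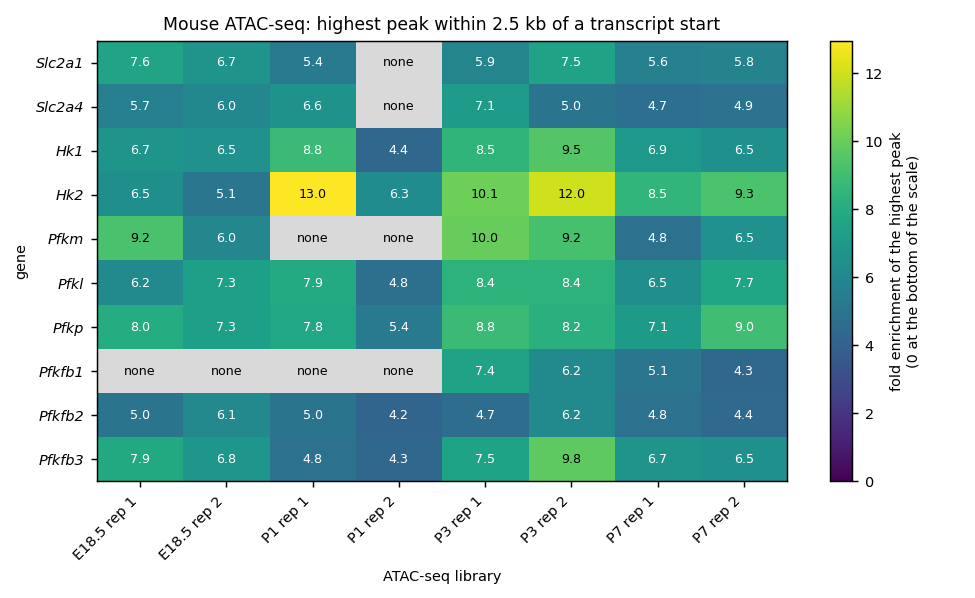
The fold enrichment of the highest peak within 2.5 kb of any transcript start is given as a number and a colour for each gene (rows) and mouse ATAC-seq library (columns), and grey cells had no such peak. Pfkm lacks a peak in both P1 libraries and Pfkfb1 in all 4 libraries of E18.5 and P1, and for Pfkm the highest peak is the region shared with Senp1 in 5 of the 6 other libraries. The lists differ in length, from 13149 to 95257 peaks.

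Genes whose log2(FPKM + 1) followed that of a member most closely over the 8 mouse libraries were taken from 8939 genes with a mean FPKM of at least 5. For Pfkm they were Iqsec2, Ppp1r13l and Nipsnap2 (Pearson r of 0.9995, 0.9988 and 0.9974), and for Slc2a4 they were Kcnh2, a cardiac potassium channel, Mylk3, the cardiac myosin light chain kinase, and Epn3 (0.997, 0.997 and 0.997). For Slc2a1 they were Ero1l, an oxidase of the endoplasmic reticulum, Vhl, the subunit that recognises hydroxylated hypoxia-inducible factor, and Gm47302 (0.989, 0.989 and 0.985). For Pfkl they were Ndufa4l2, Jmjd6 and Bnip3l (0.982, 0.967 and 0.967), and for Pfkfb3 Lif, Aldh1l2 and Pck2 (0.955, 0.928 and 0.918). For Pfkp they were Rogdi, Ehbp1 and Ppp1r3b (0.981, 0.968 and 0.966), for Hk2 Zfp322a, Cuedc1 and Rnpepl1 (0.971, 0.959 and 0.946), and for Hk1 Mms22l, Ppig and Tdrd3 (0.922, 0.890 and 0.880). The closest other member was Pfkp for Pfkm (0.901) and Pfkfb3 for Slc2a1 (0.883). All points share the 4 time points and the same libraries, and the values describe likeness over 8 libraries.

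The rest of the pathway was taken from fixed lists, whose counts between E18.5 and P7 stand beside 15.4% of all tested genes called higher and 12.3% called lower. Among 12 genes listed for lower glycolysis and lactate handling, all tested, 2 were called higher and 5 lower between E18.5 and P7, with a median log2 fold change of −0.53. The 5 included Pdk4 (−3.20), a kinase of pyruvate dehydrogenase and not an enzyme of glycolysis. The largest changes were those of Ldhb, the heart form of lactate dehydrogenase (756 and 975 FPKM at E18.5, 54.1 and 27.4 at P7, log2 fold change −4.44, adjusted p = 2.6e-05, limma), Pgam2, the muscle phosphoglycerate mutase (−4.42), and Eno3, the muscle enolase (−4.07). Pgam1, the widely expressed mutase, and Slc16a3, a lactate exporter, were the 2 that rose (1.42 and 2.01), named here after their values were seen. Of 12 other enzymes of upper glycolysis 7 were tested, and the aldolases Aldoa (−1.08) and Aldoc (−2.45) were the 2 called. Of 11 tested genes of glycogen handling 0 were called higher and 5 lower, led by Pygm, the muscle glycogen phosphorylase (−3.92), Gyg, the primer of glycogen synthesis (−2.18), and Pygl (−1.82). Of 10 tested genes of insulin-stimulated uptake 3 were called lower, namely Txnip (−1.61), Tbc1d4 (−1.19) and Insr (−1.09). This list was not split into genes that promote and genes that restrain uptake, so these calls give no direction for uptake. Of 4 tested genes among 9 other glucose transporters only Slc2a10 was called, higher at P7 (1.58).

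In the cultured rat cells, replicate 3 of each group stood apart from the others. The Spearman correlation of gene FPKM over tested genes was 0.985 between replicates 1 and 2 of the DMSO group and 0.986 between those of the TSA group. Replicate 3 correlated with its own group at 0.951 to 0.956 (DMSO) and 0.965 (TSA). The summed FPKM of the cardiomyocyte markers was 5131 to 6273 with DMSO and 6260 to 7659 with TSA, and that of the fibroblast markers 6383 to 6930 and 3565 to 5965, so these cultures also held RNA of fibroblasts. The smooth muscle and pericyte sum was highest in replicate 3 of each group (2354 with DMSO, 1579 with TSA). The macrophage sum was lowest there (474.5 and 396.1). The other marker sums did not place replicate 3 alike in both groups. What these differences contribute to the members' values was not tested. Values without both replicates 3, a choice made after seeing the data, are given beside the members whose direction they turned, and 0 members were called without them.

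None of the 9 members that passed the filter was called under TSA (0 called by limma and 0 by limma-voom). Of 13625 tested genes 1.81% were called higher, 0.316% lower and 2.13% in either direction. An unadjusted p under 0.05 was found for 0 members and for 19.8% of all tested genes (limma). Pfkl was the only member whose libraries did not overlap, with 40.8, 38.2 and 45.5 FPKM with DMSO and 47.5, 51.2 and 141 with TSA (log2 fold change 0.75 ± 0.39, adjusted p = 0.363, limma), whereas 17.1% of all tested genes lay higher in every TSA library. Hk2 measured 10.9, 11.1 and 10.5 FPKM with DMSO and 7.67, 8.68 and 69.1 with TSA. Replicates 1 and 2 of TSA lay below all DMSO libraries and replicate 3 far above them, and the log2 fold change of 0.61 ± 0.75 (adjusted p = 0.721, limma) became −0.39 (adjusted p = 0.0449, limma) without replicates 3, still under the threshold of 1 in size. Slc2a4 showed the same single high library, with 8.999, 9.64 and 5.72 FPKM with DMSO and 8.11, 8.92 and 36.4 with TSA. Its log2 fold change was 0.75 ± 0.54 (adjusted p = 0.505, limma) and −0.12 without replicates 3.

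The other rat members overlapped between groups when the libraries were not paired by replicate number. Within pairs of equal replicate number, a pairing not stated in the labels, Hk1, Pfkl and Pfkp were higher with TSA in 3 of 3. Pfkfb2 was lower in 3 of 3. Of all tested genes, 28.9% were higher and 21.5% lower in 3 of 3. With the pairs as a block, the adjusted p was 0.381 for Hk1, 0.194 for Pfkl, 0.0916 for Pfkp and 0.33 for Pfkfb2 (limma). Slc2a1 measured 59.3, 72.5 and 45.1 FPKM with DMSO and 69.5, 68.2 and 105 with TSA (log2 fold change 0.45 ± 0.23, adjusted p = 0.346, limma). Hk1 measured 84.3, 85.1 and 83.6 FPKM with DMSO and 84.9, 90.7 and 112 with TSA. Pfkm measured 116, 129 and 60.3 FPKM with DMSO and 122, 120 and 115 with TSA, so that here the low library was replicate 3 of DMSO. Without replicates 3 its log2 fold change of 0.30 became −0.01. Pfkp measured 60.7, 52.9 and 102 FPKM with DMSO and 69.6, 79.1 and 143 with TSA, highest in replicate 3 of both groups. Pfkfb2 (5.60 to 8.98 FPKM) and Pfkfb3 (7.63 to 17.8 FPKM) were within overlapping ranges, and Pfkfb1 (0.228 to 0.415 FPKM) did not pass the filter.

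**Figure D5:**
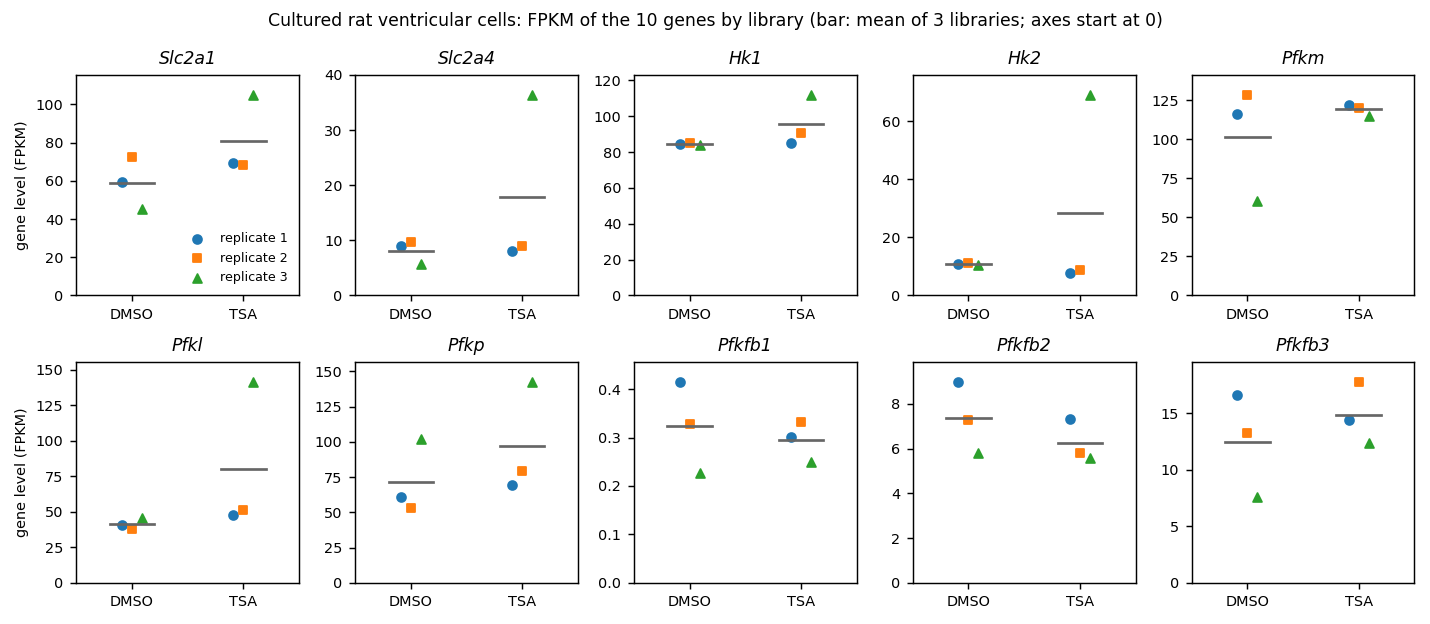
FPKM of each of the 10 genes in the 6 rat libraries, with treatment on the x axis, FPKM on a linear y axis from 0, 1 symbol per replicate number and a bar at the mean of 3 libraries. Replicate 3 of TSA stands above all other libraries for Slc2a1, Slc2a4, Hk1, Hk2, Pfkl and Pfkp.

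Hk1 held 88.4% to 88.8% of the rat hexokinase sum with DMSO, and 91.7%, 91.3% and 61.8% with TSA. Pfkm held 53.3%, 58.5% and 29.0% of the phosphofructokinase sum with DMSO and 51.1%, 47.9% and 28.8% with TSA, the lowest share in each group being that of replicate 3. Slc2a4 held 11.2% to 13.2% of the transporter sum with DMSO, and 10.4%, 11.6% and 25.7% with TSA. Of 8 rat transcripts of these genes that could be tested, 0 were called (as were 0% of the 3897 transcripts tested, 227 of which had an unadjusted p under 0.05). Of the other genes of the pathway lists only Pygl, the liver glycogen phosphorylase, was called (log2 fold change 1.203 ± 0.22, adjusted p = 0.0353, limma).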

How the data were processed

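Mouse and rat RNA-seq libraries and mouse ATAC-seq libraries were grouped by the labels. Per the file headers and the methods of the authors, reads were aligned with HISAT2 2.1.0 (mm10 and rn6) and quantified with StringTie 1.3.5 (mouse) or 1.3.4d (rat) against annotated transcripts only. The deposited values are FPKM, TPM and read coverage (a signal, mean reads per base) for each transcript, and reads that several transcripts share are divided by an estimate. Peaks were called by the authors in each ATAC-seq library with MACS2, and the deposited lists give a fold enrichment (a ratio over local background), −log10 p and q values and a score. The score was not used further.

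Gene FPKM was the sum over transcripts of a gene symbol. Genes with at least 1 FPKM in at least 2 mouse or 3 rat libraries were tested with limma 3.58.1 (R 4.3.3) on log2(FPKM + 1), two-sided, with all libraries of a species in 1 fit. A call needed a Benjamini-Hochberg adjusted p under 0.05 over all tested genes and a log2 fold change beyond 1 in either direction. Counts of reads were not used here, so the count model of the authors was replaced by limma. Transcript shares were tested with limma on log2 odds with 0.1 FPKM added, for genes of at least 5 FPKM in every library and mean shares of 5% to 95%. The scripts were tested on simulated data. All 10 members were named, with transcripts of at least 10% mean share, the 3 called genes of largest change in each list, and for each member of at least 5 FPKM the 3 genes of most similar pattern. The members and lists were chosen with earlier results of these data known.

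Rat libraries of equal replicate number were also compared as pairs, a pairing the labels do not state. Their deviations from the group means correlated at 0.224, 0.194 and 0.346. For unequal numbers the correlations were 0.167 and 0.09 among replicates 1 and 2, and −0.27 to −0.2 with a replicate 3. The data thus set replicates 3 apart from the others, and a pairing of replicates 1 and 2 is not clear. A replicate block changed no call among the rat members or their transcripts. The alternatives tried were another pseudocount, filter, scaling, TPM, limma-voom, peak threshold and window, the replicate block and leaving out each library. Intervals from read numbers were not computed, since the depth of a value was only estimated.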

Additional observations from a re-analysis of the deposited data

How the results depend on the processing

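With 2 libraries per mouse time point, 1 library can decide a call, and estimated isoform splits and peak lists of unequal length limit what the shares and peak counts show. Members called between E18.5 and P1 went from 2 to 1 with a mean FPKM of at least 5 (Pfkfb1 fell out of the test) and to 1 on the TPM scale, which moved the median of all genes from 0.151 to 0.335. Without a filter, calls went from 5 to 3 between P1 and P7 and from 4 to 0 between P3 and P7. With 1 library left out they ranged from 1 to 2 (E18.5 to P1), 3 to 4 (P1 to P7) and 0 to 3 (P3 to P7). Transcripts called between E18.5 and P7 went from 1 to 3 with 1 FPKM added, to 0 with a gene FPKM of at least 1, to 0 with the replicate block, and ranged from 0 to 0 with 1 library left out. The Pfkfb1 share difference went from 7.9 to 1.99 percentage points with estimated reads. With equal numbers of top peaks, members with a promoter peak went from 10 to 6 at P3 (37.3% of genes) and from 10 to 6 at P7 (45.2%). Except where stated, the cause was not tested.

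Signs turned only for values that were not called. Size factors gave Hk1 −0.043 and Pfkfb3 −0.072 (P1 against E18.5), Pfkfb2 −0.054 (P7 against E18.5) and Pfkfb1 0.006 (P7 against P3). Limma-voom gave Pfkfb2 −0.189 and Pfkfb1 0.081 in those comparisons, and TPM gave Hk2 0.201 at P3 and 0.231 at P7. Without both rat replicates 3, Slc2a4 was −0.118, Hk2 −0.394 and Pfkm −0.011. With 1 library left out, the P1 against E18.5 ranges were −0.019 to 0.459 (Slc2a1), −0.308 to 0.503 (Hk1), −0.908 to 0.04 (Pfkl), −0.652 to 0.094 (Pfkp) and −0.267 to 0.379 (Pfkfb3). Those of P3 against E18.5 were −0.066 to 0.371 (Slc2a1), −0.648 to 0.117 (Hk1), −0.325 to 0.234 (Hk2) and −0.141 to 0.36 (Pfkfb2). Those of P7 against E18.5 were −0.689 to 0.014 (Hk1), −0.306 to 0.252 (Hk2) and −0.229 to 0.272 (Pfkfb2). Those of P3 against P1 were −0.306 to 0.172 (Slc2a1), −0.769 to 0.043 (Hk1) and −0.439 to 0.509 (Pfkl). Those of P7 against P3 were −0.455 to 0.311 (Hk1), −0.043 to 0.08 (Hk2), −0.167 to 0.125 (Pfkfb1) and −0.251 to 0.075 (Pfkfb2). Those of TSA were −0.373 to 1.135 (Hk2), −0.036 to 0.504 (Pfkm) and −0.011 to 0.504 (Pfkfb3).

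Deviations of mouse libraries with equal replicate numbers correlated at −0.096 to 0.171. With 2 libraries per time point, the values for unequal numbers are the same with the sign turned. A pairing by replicate number was therefore neither shown nor excluded. The replicate block changed no other call among the members. Among the single genes, 752 values under alternatives kept direction and call, 46 turned sign, 35 lost a call and 1 gained one.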
